A study of Rattus norvegicus with 40 samples.

Results

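The genes described here are 49 ribosome biogenesis factors, the proteins that build ribosomal subunits but are mostly absent from the finished ribosome. They were taken from a fixed list of symbols. For each symbol, the array row (transcript cluster) that the platform annotation pairs with that symbol alone was used, and where a symbol had several rows, the row with the highest mean over all arrays. Of the 49, 44 were found, and 5 (Rrp12, Utp20, Pes1, Rrp1b and Nop2) had no row under their symbol and were dropped. All 44 passed the intensity filter, so that they make up 44 of the 10203 genes tested. They fall into 5 classes by role: 8 proteins of small nucleolar ribonucleoproteins (snoRNPs), 5 of RNA polymerase I and the nucleolus, 14 of the small subunit processome, 4 of late small subunit maturation and 13 of large subunit assembly. Ddx21, Ebna1bp2, Nop16, Nip7 and Gnl3 each had a second row, which was set aside.

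The study asked how mTOR (mechanistic target of rapamycin, a growth-controlling kinase) regulates hepatic translation in Sprague Dawley rats, and hybridised liver RNA to 40 Affymetrix Rat Gene 1.0 ST arrays. Adult rats of 125 to 150 g were fasted for 48 h, injected with DMSO or rapamycin, and refed from 1 h later for 3 h (the refed model). Other adults of that weight received either agent 1 h before partial hepatectomy, and were killed 24 h after it (the hepatectomy model). Fetuses were injected on gestation day 19 and delivered on day 20 (the fetal model). Adults received 250 µg of rapamycin for every 100 g they weighed, each fetus received 50 µg, and DMSO, the solvent, served as the control. From each liver, as the shared numbers of the titles are read here, RNA of polysomes (mRNAs carrying several ribosomes, isolated on sucrose gradients) and total RNA were each put on an array. The 12 groups held n = 3 livers each in adults and n = 4 in fetuses. Partial hepatectomy and fetal life are models of proliferative growth, and refeeding is one of growth without proliferation. No untreated, fasted or sham-operated liver was analysed here, so all controls share the feeding, the surgery or the developmental stage of their model. Per the labels' protocols polysome RNA came from pooled preparations, without a statement of what was pooled. The time point of the 3 hepatectomy polysome DMSO arrays names refeeding, against their titles. The titles were followed.

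Ribosome assembly starts in the nucleolus, where RNA polymerase I transcribes the precursor of the ribosomal RNAs. SnoRNPs guide its methylation and pseudouridylation, the small subunit processome folds and cleaves it, and separate sets of factors carry the precursors of the small (40S) and large (60S) subunits to the cytoplasm. The genes encoding these factors are known to be expressed together in growing cells, and both mTOR signalling and the transcription factor Myc are known to promote ribosome production. Liver makes many ribosomes when it regrows after hepatectomy and when a fasted animal is refed.

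Myc binds the E-box CACGTG, a palindrome that reads the same on both strands. Promoter windows (RefSeq, build GRCr8, 250 bases before to 50 after the annotated start) were found for 40 of the 44 members; Wdr43, Bop1, Gnl2 and Rrs1 had none in the table. CACGTG was present in 12 of the 40 windows (30%), against 9.61% of 8466 tested genes and 7.08% of all 27457 genes of the table. The stretches around the E-boxes that lie wholly before the annotated start, found in 6 members, are shown. Each is given from 5′ to 3′ along the gene's strand, with the E-box in capitals.

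Ltv1: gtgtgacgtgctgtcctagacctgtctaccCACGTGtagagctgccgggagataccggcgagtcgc
Wdr75: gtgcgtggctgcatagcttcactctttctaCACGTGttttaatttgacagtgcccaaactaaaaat
Utp18: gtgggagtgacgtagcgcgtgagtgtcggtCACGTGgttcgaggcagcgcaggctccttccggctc
Gnl3: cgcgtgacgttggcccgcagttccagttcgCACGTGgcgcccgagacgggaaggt
Utp4: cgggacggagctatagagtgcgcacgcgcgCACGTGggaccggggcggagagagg
Dkc1: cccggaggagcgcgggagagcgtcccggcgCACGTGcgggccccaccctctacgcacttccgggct

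In GRCr8 the Ltv1 stretch lies at chr1:9398583-9398648 on the minus strand. The Wdr75 stretch is at chr9:55395042-55395107 (plus), that of Utp18 at chr10:79335812-79335877 (minus) and that of Gnl3 at chr16:6219783-6219837 (minus). The Utp4 stretch is at chr19:51702186-51702240 (plus) and that of Dkc1 at chrX:157751437-157751502 (plus). The first base of the E-box lies at position -25 from the annotated start in Gnl3 and in Utp4, -61 in Ltv1, -90 in Utp18, -160 in Wdr75 and -184 in Dkc1. In Nol6 it lies at -2, across the start, and in Fbl, Noc3l, Ebna1bp2, Bysl and Tsr1 after the start. Utp18 holds a second E-box at position 4. A TOP-like start, meaning C at the annotated start followed by at least 4 pyrimidines, was found in Gar1 and Mrto4 alone (5% of members, against 3.11% of all genes of the table). A match is a description of the sequence and not a bound site. The median rapamycin difference in refed polysomes was -0.43 in the 12 members with an E-box and -0.50 in the 28 without. Other comparisons lay further apart. Polysome minus total RNA in fetal DMSO livers had a median of 0.42 with an E-box and 0.20 without. In refed DMSO livers the order was the other way, 0.11 with and 0.31 without. None of these gaps was tested.

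All values below are log2 of the authors' normalised intensities, and differences are log2 differences with the standard error (SE) of the limma fit. A member was called where the Benjamini-Hochberg adjusted p, over all 10860 named transcript clusters tested, was under 0.05. The labels describe replicates as biological. The main fits pooled the spread of polysome and total RNA arrays, and treated arrays of the same liver as independent. Deviations of such arrays correlated at 0.459 to 0.818 in refed, 0.506 to 0.723 in hepatectomy and 0.328 to 0.693 in fetal livers. The residual degrees of freedom thus count arrays and not livers. The p-values do not measure the spread between the livers of the compared groups alone, and may be too small within a single fraction. Because every array received 100 ng of RNA and the arrays were normalised to each other, a change shared by all mRNAs cannot be seen. In whole liver, fewer cells of a type and less RNA per cell cannot be told apart. The mean of 10 hepatocyte markers was 13.53 to 13.82 in every group, which places all groups in hepatocyte-rich tissue. The mean of 9 proliferation markers was 6.15 to 6.32 in the refed groups and 9.12 to 11.03 in the hepatectomy and fetal groups. Erythroid markers averaged 12.03 to 12.19 in fetal groups and 7.79 to 8.25 in adult groups.

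In each adult DMSO group most of the 44 members were highest in the same liver. This was not so in fetal DMSO polysomes, where livers 1 to 4 were highest for 17, 9, 12 and 6 members. Of all tested clusters the shares there were 16.1%, 29.6%, 32.8% and 21.5%. In fetal DMSO total RNA, however, liver 3 was the highest for 24 of 44 members (29.9% of all clusters). To describe each array, each member's log2 intensity was set relative to its own mean over the 40 arrays and averaged over members. In refed DMSO polysomes this mean was 0.14, 0.18 and 0.96 in livers 1, 2 and 3, and in refed DMSO total RNA it was -0.19, -0.01 and 0.72. Liver 3 thus stood far above livers 1 and 2 in both fractions. Its value was the highest of the 3 for all 44 members in polysomes (40.1% of all tested clusters) and for 40 of 44 in total RNA (30.5%). The median excess of liver 3 over the other livers was 0.78 in polysomes and 0.83 in total RNA, against -0.02 and -0.06 over all tested clusters. In the hepatectomy model, DMSO liver 2 was the highest for 38 of 44 members in polysomes (34.3% of all clusters) and 42 of 44 in total RNA (38.2%), with a median excess of 0.36 and 0.28. DMSO liver 1 lay the other way. It was the lowest for 27 of 44 members in polysomes (43.1% of all clusters) and 41 in total RNA (40.3%). Its median difference from the other livers was -0.26 and -0.28. No fit left out liver 1 in both fractions. The medians and call counts of the comparisons that use refed DMSO liver 3 or hepatectomy DMSO liver 2 are given with and without them. The covariation, the ranking of groups, the class medians and the overlap counts include them.

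**Figure D1:**
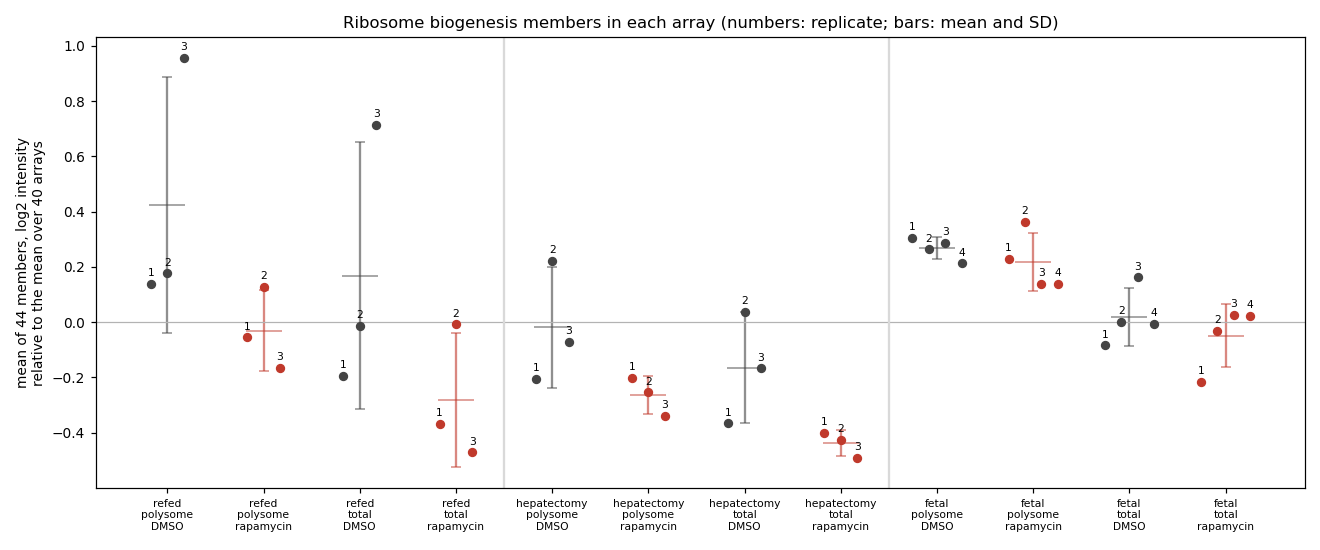
Mean of the 44 members in each array, as log2 intensity relative to each member's mean over 40 arrays (vertical axis), for the 12 groups (horizontal axis); dark points are DMSO and red points rapamycin, numbers name the liver, and bars give the group mean and SD. Refed DMSO liver 3 is highest in both fractions (0.96 and 0.72). The fetal and the hepatectomy rapamycin groups have the smallest SDs (0.040 to 0.114).

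Within the refed rapamycin livers the mean was -0.05, 0.13 and -0.16 in polysomes and -0.37, -0.01 and -0.47 in total RNA. Within hepatectomy it was -0.21, 0.22 and -0.07 in DMSO polysomes and -0.20, -0.25 and -0.34 in rapamycin polysomes. In hepatectomy total RNA it was -0.37, 0.04 and -0.17 with DMSO and -0.40, -0.43 and -0.49 with rapamycin. The rapamycin livers of the hepatectomy model were close to each other and below DMSO livers 2 and 3, while DMSO liver 1 lay among or near the rapamycin values. In fetal polysomes the mean ran from 0.21 to 0.31 with DMSO and from 0.14 to 0.36 with rapamycin, and in fetal total RNA from -0.08 to 0.16 and from -0.22 to 0.03. The fetal groups overlapped throughout.

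Deviations from the group means were correlated across the 40 arrays as a description. Arrays of 1 liver share their RNA source and all arrays share 1 normalisation. The median Pearson correlation was 0.63 over the 946 pairs of members and 0.03 over all pairs of tested clusters, and 71.7% of member pairs exceeded 0.5, against 8.33%. Wdr43, a processome subunit, followed the mean of the other members most closely (r = 0.96), then Bysl, a factor of late 40S maturation (0.95), Mphosph10 (0.93) and Rrp9 (0.93), both of the processome. The loosest members were Nop10, a small H/ACA snoRNP protein (0.34), Polr1a, the largest subunit of RNA polymerase I (0.40), and Tcof1, the nucleolar protein treacle (0.43). Members that moved with the set are therefore found in several classes, and the RNA polymerase I class holds 2 of the 3 loosest.

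**Figure D2:**
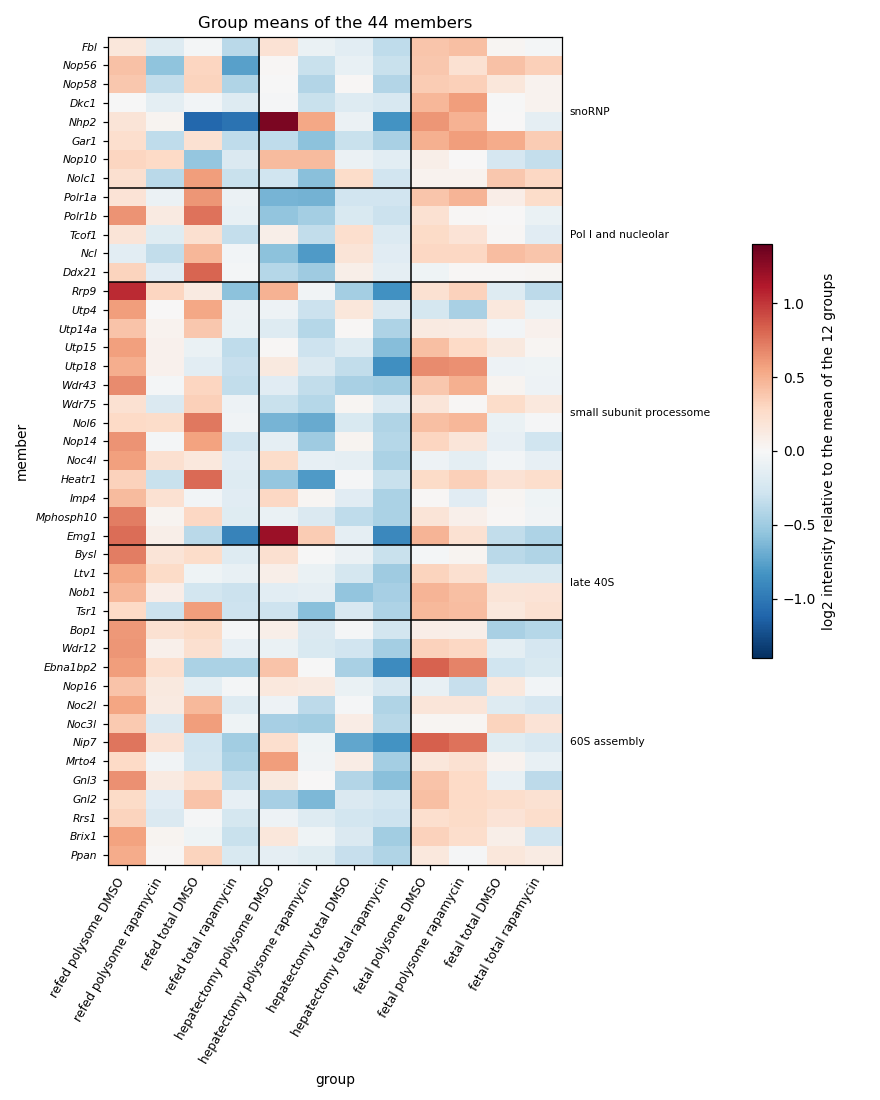
Group mean of each of the 44 members (rows, by class) in the 12 groups (columns), as log2 intensity relative to the mean of the member's 12 groups. Refed polysome DMSO holds the highest mean of 21 members, and hepatectomy total rapamycin the lowest mean of 18.

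Over the 12 groups, the highest group mean was in refed DMSO polysomes for 21 members and in refed DMSO total RNA for 10. These means include liver 3, at 0.96 and 0.72 in the members' mean. Livers 1 and 2 were at 0.14 and 0.18 in polysomes and at -0.19 and -0.01 in total RNA. In fetal DMSO polysomes the livers lay between 0.21 and 0.31. The ranking was not repeated without liver 3 and was not counted over all clusters. The lowest group mean was in hepatectomy rapamycin total RNA for 18 members and in hepatectomy rapamycin polysomes for 14. The range between a member's highest and lowest group mean was widest for Nhp2 (2.41), Emg1 (2.14) and Rrp9 (1.89). It was narrowest for Rrs1 (0.60), a 60S assembly factor, and Tcof1 (0.61). Each range includes polysome and total RNA groups.

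Rapamycin in refed livers was the first comparison. All 44 members had a lower mean with rapamycin than with DMSO in polysomes, by a median of 0.49 on the log2 scale (-0.49, against 0.00 over all tested clusters), and 40 of 44 did in total RNA (median -0.49, against 0.035). No member passed the test in either fraction by limma (background 0% in each direction). At an unadjusted p under 0.05 there were 3 members in polysomes (6.82%, against 4.84% of all clusters) and 15 in total RNA (34.1%, against 16.9%). The 3 rapamycin livers lay entirely below the 3 DMSO livers for 17 members in polysomes, where 9.17% of all clusters did so, and for 13 in total RNA, against 5.11%. Entirely above lay 0 members in each fraction (8.66% and 8.6% of all clusters).

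Nop56, a core protein of box C/D snoRNPs, had the largest refed difference. Its polysome values were 10.95, 11.07 and 11.71 with DMSO and 10.25, 10.37 and 10.17 with rapamycin. In total RNA they were 10.82, 10.93 and 11.64 with DMSO and 10.03, 10.43 and 9.75 with rapamycin. Every rapamycin liver was below every DMSO liver in both fractions. The differences were -0.98 ± 0.262 (SE, n = 3 per group, limma adjusted p = 0.701) and -1.06 ± 0.262 (adjusted p = 0.237). Without DMSO liver 3 they were -0.74 and -0.80.

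Emg1 encodes the methyltransferase that modifies a pseudouridine of the small subunit RNA. In refed polysomes it measured 10.41, 10.26 and 10.61 with DMSO and 9.90, 9.72 and 9.58 with rapamycin. In refed total RNA it measured 9.18, 9.27 and 9.39 with DMSO and 8.57, 8.95 and 8.62 with rapamycin. The groups were apart in both fractions, and DMSO liver 3 stood only slightly above the others. The differences were -0.69 ± 0.155 (SE, limma adjusted p = 0.566) and -0.57 ± 0.155 (adjusted p = 0.237), and without liver 3 they were -0.60 and -0.51.

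Utp4, a processome subunit that binds the start of the ribosomal RNA precursor, measured 11.20, 11.04 and 11.97 in refed DMSO polysomes and 10.94, 10.82 and 10.71 with rapamycin. Its total RNA values were 11.03, 11.28 and 11.78 against 10.74, 10.69 and 10.79. Tsr1, of late 40S maturation, measured 9.88, 9.69 and 10.82 in DMSO total RNA and 9.20, 9.42 and 9.13 with rapamycin. Both members kept their groups apart, with liver 3 the highest. The polysome difference was -0.58 ± 0.239 for Utp4 (SE, limma adjusted p = 0.957), and the total RNA difference of Tsr1 was -0.88 ± 0.277 (adjusted p = 0.237). Without liver 3 these were -0.30 and -0.53.

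In other members the refed groups overlapped, with DMSO liver 3 the highest. Fbl, the methyltransferase of box C/D snoRNPs, measured 10.42, 10.49 and 11.18 in refed DMSO total RNA and 10.38, 10.67 and 9.99 with rapamycin. Polr1b, a subunit of RNA polymerase I, measured 9.82, 10.04 and 10.85 in DMSO polysomes and 9.57, 9.88 and 9.75 with rapamycin. In both members rapamycin liver 2 was above DMSO liver 1. For Polr1b DMSO liver 3 alone stood apart, and for Fbl rapamycin liver 3 also lay well below the rest. Gnl3, the nucleolar GTPase nucleostemin, likewise measured 9.81, 10.06 and 10.93 against 9.78, 9.98 and 9.50 in polysomes.

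Of 5 further members, some had refed groups that were apart and some that overlapped. Bysl measured 9.88, 9.86 and 10.63 in refed DMSO polysomes and 9.62, 9.74 and 9.40 with rapamycin. Bop1, a 60S factor of the complex with Wdr12, measured 9.82, 9.76 and 10.40 against 9.63, 9.74 and 9.41. In both the rapamycin livers were the lower ones, with rapamycin liver 2 closest to the DMSO livers. Nolc1, a chaperone of snoRNPs, measured 10.24, 10.16 and 11.42 in DMSO total RNA and 9.76, 9.86 and 9.52 with rapamycin. Ncl, nucleolin, measured 11.51, 11.56 and 12.11 in DMSO polysomes and 11.74, 11.52 and 11.30 with rapamycin, which overlap. Dkc1, the pseudouridine synthase of H/ACA snoRNPs, measured 9.06, 9.10 and 9.44 in DMSO polysomes and 9.06, 9.16 and 8.99 with rapamycin, which also overlap.

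By class, the median refed difference in polysomes was -0.46 for snoRNPs, -0.35 for the RNA polymerase I class, -0.55 for the processome, -0.45 for late 40S and -0.50 for 60S assembly. In total RNA it was -0.46, -0.69, -0.52, -0.25 and -0.28 in that order. Nop10 (0.34 ± 0.109, limma adjusted p = 0.237), Nop16 (0.12), Nhp2 (0.06) and Ebna1bp2 (0.00) were the members not lower in refed total RNA. Without DMSO liver 3 in both fractions the median over members was -0.18 in polysomes (41 of 44 negative) and -0.18 in total RNA (33 of 44), again with 0 called. Without the refed total DMSO array of liver 2, 8 members were called in total RNA, 1 higher and 7 lower, where 12.1% of all clusters were called higher and 4.12% lower.

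**Figure D3:**
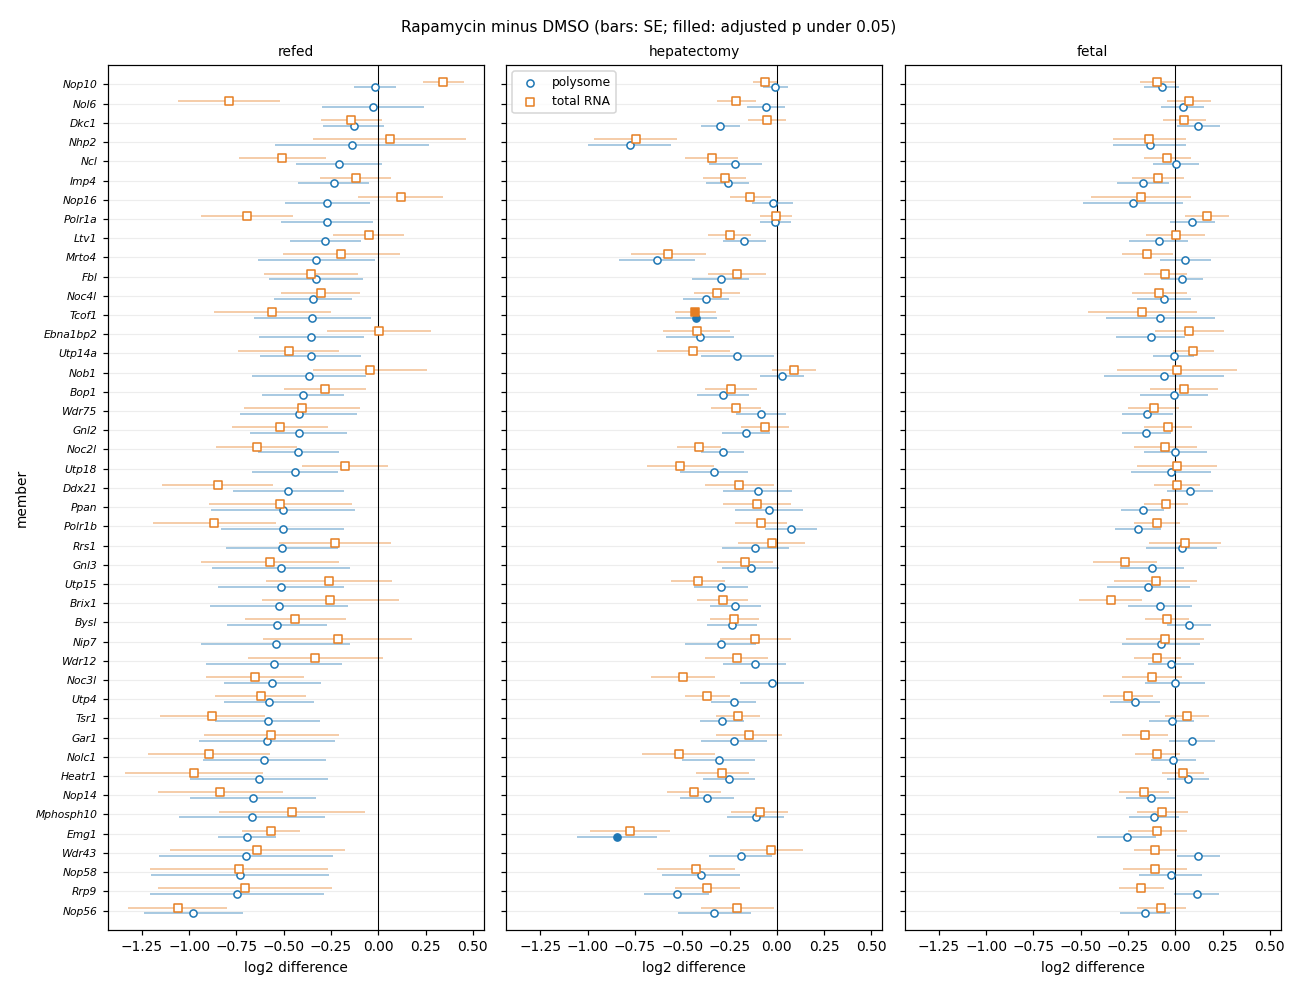
Log2 difference rapamycin minus DMSO (horizontal axis) for each of the 44 members (vertical axis) in the 3 models, polysome and total RNA; bars give the SE and filled points an adjusted p under 0.05. The refed values lie mostly between 0 and -1.06, the hepatectomy values nearer 0, and the fetal values around 0.

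After hepatectomy, 42 of 44 members had a lower mean with rapamycin in polysomes and 43 of 44 in total RNA, with a median of -0.23 in each (over all clusters -0.014 and -0.015). Emg1 and Tcof1 fell in polysomes and Tcof1 fell in total RNA. Of all clusters, 4.1% fell and 2.26% rose in polysomes, and 3.54% fell and 1.47% rose in total RNA, so that 2 and 1 of 44 members (4.55% and 2.27%) are near the background. The groups were apart with rapamycin lower for 11 members in polysomes, against 15.6% of all clusters, and for 18 in total RNA, against 17.8%. With rapamycin higher there were 0 members (11.3% and 13% of all clusters).

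Emg1 measured 10.55, 11.01 and 11.00 in hepatectomy DMSO polysomes and 9.87, 10.04 and 10.11 with rapamycin. In total RNA it measured 9.02, 9.84 and 9.73 with DMSO and 8.72, 9.04 and 8.49 with rapamycin. The polysome groups were apart, and in total RNA DMSO liver 1 lay just below rapamycin liver 2. The polysome difference was -0.84 ± 0.212 (SE, limma adjusted p = 0.0403), and that in total RNA was -0.78 ± 0.212 (adjusted p = 0.0560).

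Tcof1, which links RNA polymerase I transcription to RNA modification, measured 8.24, 8.42 and 8.12 in hepatectomy DMSO polysomes and 7.92, 7.88 and 7.69 with rapamycin. Its total RNA values were 8.29, 8.46 and 8.48 against 8.10, 7.92 and 7.92. All rapamycin livers lay below all DMSO livers. The difference was -0.43 ± 0.108 in each fraction (SE, limma adjusted p = 0.0412 in polysomes and 0.0426 in total RNA). Without DMSO liver 2 in both fractions Emg1 differed by -0.76 in polysomes (limma adjusted p = 0.128), and Tcof1 by -0.35 in polysomes (adjusted p = 0.159) and -0.41 in total RNA (adjusted p = 0.138). There 0 members were called and the median over members was -0.12 in polysomes (31 of 44 negative) and -0.14 in total RNA (37 of 44). Leaving out the polysome array of DMSO liver 1 gave 10 members called lower (9.75% of all clusters), and leaving out that liver's total RNA array gave 5 (5.41%). Leaving out rapamycin liver 2 in total RNA gave 1, a member other than Tcof1, and leaving out any other array of the compared groups left 0.

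Members close to the threshold were Nhp2, which stabilises H/ACA snoRNPs, at -0.78 ± 0.219 in polysomes and -0.75 ± 0.219 in total RNA (limma adjusted p = 0.0552 and 0.0683), and Noc2l in total RNA (-0.41 ± 0.116, adjusted p = 0.0628). Nhp2 measured 10.62, 11.27 and 11.29 in DMSO polysomes and 10.30, 10.53 and 10.02 with rapamycin, so that every rapamycin liver was lower. Utp4 measured 10.91, 11.17 and 10.86 in DMSO total RNA and 10.63, 10.62 and 10.59 with rapamycin. Tsr1 measured 9.11, 9.47 and 9.18 in DMSO polysomes and 8.83, 9.04 and 9.02 with rapamycin. Both members kept their groups apart with differences under 0.4. Nolc1 measured 9.95, 10.65 and 10.24 in DMSO total RNA and 9.83, 9.80 and 9.65 with rapamycin, and Ncl 11.87, 12.26 and 12.03 against 11.77, 11.73 and 11.63. In both, DMSO liver 1 lay nearest the rapamycin livers and DMSO liver 2 was the highest.

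After hepatectomy Polr1b measured 9.04, 9.29 and 8.82 in DMSO polysomes and 9.27, 9.12 and 8.98 with rapamycin, which overlap. Polr1a differed by -0.0073 in polysomes and -0.0050 in total RNA, and Nob1, the nuclease that makes the last cut of the small subunit RNA, by 0.03 and 0.09. Dkc1 measured 8.98, 9.30 and 9.30 against 8.91, 8.90 and 8.88 in polysomes, with a gap of under 0.1 between the nearest livers. Fbl (10.68, 11.13 and 10.98 against 10.66, 10.72 and 10.52), Bysl (9.47, 9.87 and 9.57 against 9.58, 9.32 and 9.31) and Gnl3 (9.55, 10.08 and 9.68 against 9.65, 9.63 and 9.63) overlapped through DMSO liver 1.

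Cell type markers moved in the same comparison. Of 9 proliferation markers, 8 fell with rapamycin in each fraction, and their mean went from 11.03 ± 0.213 to 9.50 ± 0.647 in polysomes and from 10.91 ± 0.323 to 9.12 ± 0.730 in total RNA (SD, n = 3). Of 7 endothelial markers, 4 rose in each fraction (mean 8.84 to 9.40 and 9.24 to 9.78). The hepatocyte mean was 13.54 and 13.53 in polysomes. Their part in the members' differences was not tested.

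In fetal livers no member passed the test in either fraction by limma (background 0%), and none reached an unadjusted p under 0.05, against 2.27% of all clusters in polysomes and 1.83% in total RNA. The median difference was -0.04 in polysomes (30 of 44 negative) and -0.08 in total RNA (31 of 44), beside -0.03 and -0.02 over all clusters. Fetal groups did not overlap for 0 members, against 1.27% of all clusters lower and 0.47% higher in polysomes and 0.663% and 0.304% in total RNA. With cyclic loess scaling 22 of 44 were negative in polysomes. The smallest p belonged to Emg1 (-0.26 ± 0.154), Polr1b (-0.20 ± 0.121) and Utp4 (-0.21 ± 0.132) in polysomes. In total RNA it belonged to Brix1, a 60S factor (-0.34 ± 0.168), Utp4 (-0.25 ± 0.132) and Gnl3 (-0.26 ± 0.169), each with a limma adjusted p of 1.00. Emg1 measured 10.32, 10.33, 9.96 and 9.88 in fetal DMSO polysomes and 10.02, 10.03, 9.60 and 9.82 with rapamycin. Nop56 measured 11.12, 11.21, 11.40 and 11.24 in fetal DMSO total RNA and 10.97, 11.36, 11.41 and 10.93 with rapamycin. These fetal ranges overlap widely. Arrays of equal number deviated together across fetal treatments, and with the number as a block 0 members were called again.

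Across the 6 rapamycin comparisons, 19 members had a negative difference in all 6, among them Nop56, Nop58, Nolc1, Tcof1, Utp4, Emg1, Nop14, Gnl3 and Ppan. A further 17 were negative in 5, 7 in 4 and 1, Nob1, in 3. Between the refed and hepatectomy models 42 members were negative in both polysome comparisons and 39 in both total RNA comparisons. The 6 comparisons are not independent, since they read 3 models in 2 fractions of the same livers. These tallies include refed DMSO liver 3 and hepatectomy DMSO liver 2, and were not repeated without them or counted over all clusters. In the single comparisons 45.1% to 58.2% of all clusters were negative. The sizes did not rank alike: Spearman's rho over the 44 members was 0.19 in polysomes and 0.07 in total RNA, given as a description. For example, Nop56 differed by -0.98 in refed polysomes and -0.33 after hepatectomy, whereas Nhp2 differed by -0.14 and -0.78.

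The rapamycin difference was then compared between models. No member was called in any of the 4 contrasts by limma (background 0.00921% higher and 0.11% lower for hepatectomy minus refed in polysomes, 0.0276% and 0.488% in total RNA, and 0.00921% and 0% for fetal minus hepatectomy in each fraction). At an unadjusted p under 0.05 there were 1 member for hepatectomy minus refed and 3 for fetal minus hepatectomy in polysomes, and 7 and 1 in total RNA. These are 2.27%, 6.82%, 15.9% and 2.27% of the members, beside 4.75%, 6.53%, 15.2% and 6.11% of all clusters. The median of the polysome difference in hepatectomy minus that in refed livers was 0.26 and turned to -0.037 without refed DMSO liver 3. Nop56 (0.65 ± 0.298, limma adjusted p = 0.971), Polr1b (0.58 ± 0.311) and Noc3l (0.53 ± 0.304) had the smallest p. In total RNA the median was 0.18, with Nop10 (-0.41 ± 0.134, adjusted p = 0.130), Polr1a (0.69, adjusted p = 0.141) and Nop56 (0.85, adjusted p = 0.154) first by p, and -0.10 without that liver. Leaving out the refed total DMSO array of liver 2 gave 6 called members, beside 1135 of all 10860 clusters. For fetal minus hepatectomy the median was 0.21 in polysomes and 0.19 in total RNA. First by p were Dkc1 (0.42 ± 0.169), Emg1 (0.59 ± 0.249) and Mrto4 (0.69 ± 0.312) in polysomes, with limma adjusted p of 0.584 to 0.698. In total RNA they were Emg1 (0.68 ± 0.249, adjusted p = 0.522), Utp14a (0.54 ± 0.270) and Utp18 (0.52 ± 0.308). The medians were 0.075 and 0.093 without hepatectomy DMSO liver 2.

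Whether rapamycin acted on polysome RNA beyond total RNA was tested as an interaction in each model. No member was called by limma (background 0% in each), and 1, 0 and 0 members reached an unadjusted p under 0.05 in refed, hepatectomy and fetal livers, beside 2.45%, 1.45% and 0.414% of all clusters. The medians were -0.02, 0.02 and 0.01, and without refed DMSO liver 3 the refed median was again -0.02 with 0 called. In refed livers the smallest p belonged to Nop10 (-0.36 ± 0.154), Nol6 (0.76 ± 0.383) and Polr1a (0.42 ± 0.344), each with a limma adjusted p of 0.994. In the hepatectomy model these were Noc3l (0.47 ± 0.241), Dkc1 (-0.25 ± 0.143) and Nol6 (0.16 ± 0.144). In fetal livers they were Rrp9 (0.29 ± 0.169), Wdr43 (0.23 ± 0.160) and Gar1 (0.25 ± 0.175), and all 6 had an adjusted p of 1.00. The SE of the 3 refed members was 0.154 to 0.383 in these fits, which did not use the liver as a block. Arrays of the same liver deviated together, so these SEs do not show what difference between fractions was detectable. With the liver as a block no member was called either.

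In DMSO livers the share of each mRNA in polysome RNA was compared with its level in total RNA. The value is relative, since arrays were normalised across fractions. The median over members was 0.27 in refed, 0.18 in hepatectomy and 0.27 in fetal livers (0.10, 0.09 and 0.04 over all clusters). In refed livers 5 members were higher in polysomes and 0 lower, beside 19.5% of all clusters higher and 5.14% lower. In hepatectomy livers 13 were higher and 6 lower, beside 28.8% and 15%. In fetal livers 13 were higher and 0 lower, beside 8.1% and 6.38%. Arrays of the same liver deviated together, and with the liver as a block the counts were 13 higher and 1 lower in refed livers (29.7% and 11.5% of all clusters). They were 19 and 11 after hepatectomy (37.9% and 22.4%), and 19 and 2 in fetal livers (16.8% and 11.8%). As shares of the members, 11.4% were higher in refed livers, 29.5% higher and 13.6% lower after hepatectomy, and 29.5% higher in fetuses. The polysome and total RNA arrays did not overlap, with polysomes higher, for 7, 10 and 16 members (25.9%, 32.1% and 14.2% of all clusters), and with polysomes lower for 0, 6 and 2 (10.7%, 18.7% and 9.01%).

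**Figure D4:**
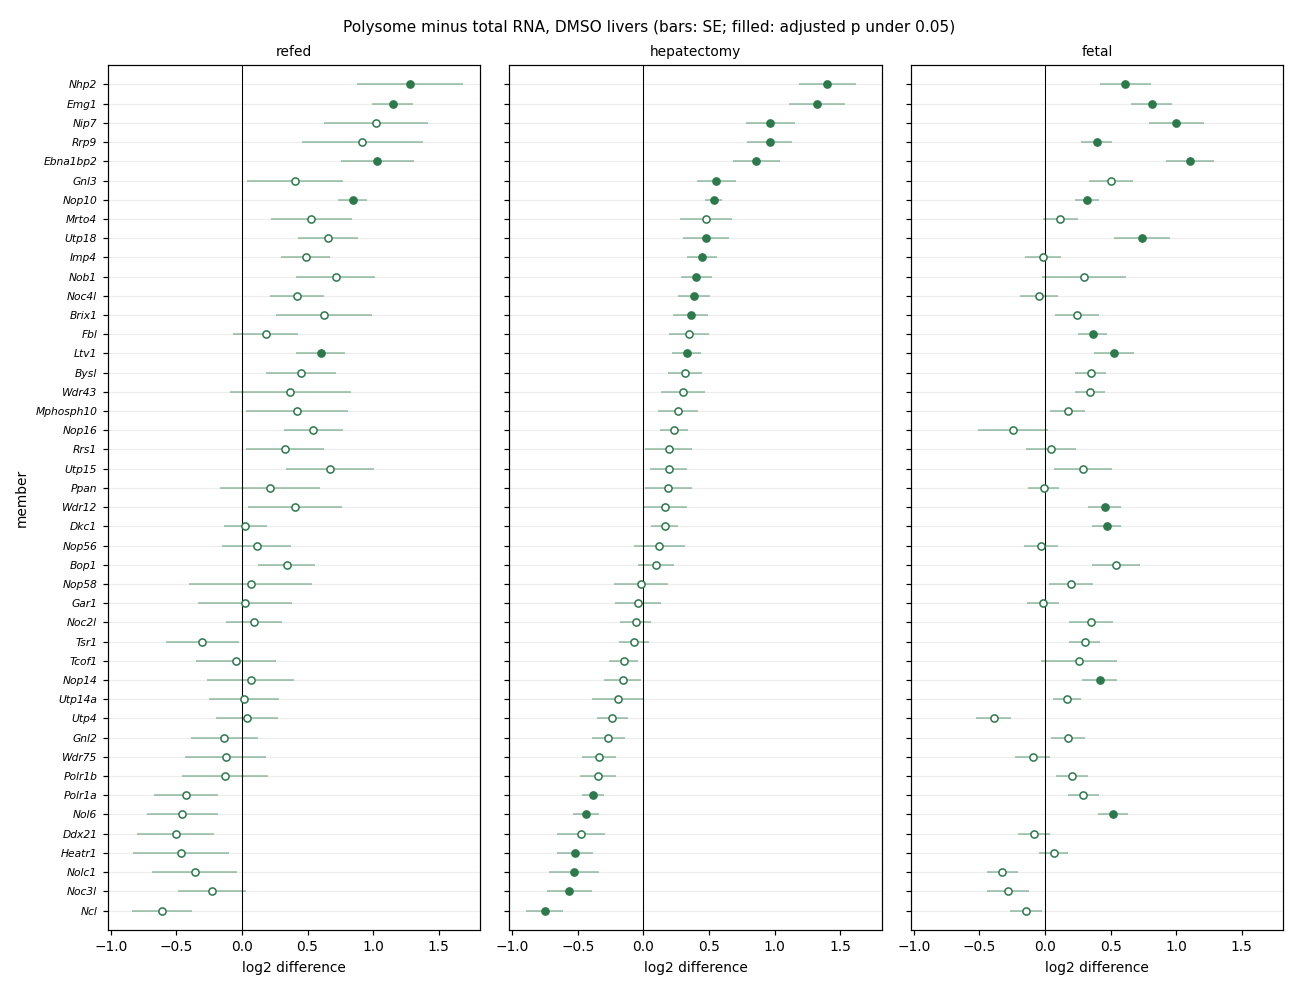
Log2 difference polysome minus total RNA in DMSO livers (horizontal axis) for each of the 44 members (vertical axis) in the 3 models; bars give the SE and filled points an adjusted p under 0.05. Nhp2, Emg1, Ebna1bp2 and Nip7 lie to the right in all models, and Ncl to the left.

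Emg1 was higher in polysomes in all 3 models: by 1.15 ± 0.155 in refed livers, 1.32 ± 0.212 after hepatectomy and 0.81 ± 0.154 in fetuses (SE, limma adjusted p = 0.00105, 0.000455 and 0.00327). Its DMSO values, 10.26 to 10.61 in refed polysomes against 9.18 to 9.39 in total RNA, are apart by far more than the spread between livers. Nhp2 was likewise higher by 1.28, 1.40 and 0.61, Ebna1bp2, a 60S factor, by 1.03, 0.86 and 1.10, Nop10 by 0.84, 0.53 and 0.32, and Ltv1, an adaptor of late 40S export, by 0.60, 0.33 and 0.53. Nip7, of 60S assembly, was higher by 0.97 after hepatectomy and 1.00 in fetuses, and its refed difference of 1.02 was called only with the liver as a block. Rrp9, the U3 snoRNP protein, was higher by 0.96 after hepatectomy and 0.39 in fetuses. Ebna1bp2 and Nip7 each have a second row that these values leave out. With the mean of all rows of a symbol, 4 of the 5 refed calls were kept, as were all 19 after hepatectomy and all 13 in fetuses. Without refed DMSO liver 3, Nhp2, Nop10 and Emg1 were still called higher in refed livers and Ncl was called lower. Without hepatectomy DMSO liver 2, 17 of the 19 hepatectomy calls were kept.

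Other members were lower in polysomes. After hepatectomy Ncl was lower in polysomes by 0.75 on the log2 scale (-0.75 ± 0.141, limma adjusted p = 0.00122), as were Noc3l (-0.57), Nolc1 (-0.53), Heatr1 (-0.52), Nol6 (-0.44) and Polr1a (-0.39). Ncl measured 11.30, 11.59 and 11.01 in hepatectomy DMSO polysomes and 11.87, 12.26 and 12.03 in total RNA, with no overlap. In fetuses it measured 12.23, 11.99, 12.18 and 12.24 in polysomes and 12.32, 12.51, 12.19 and 12.20 in total RNA, which overlap. The 5 members of the RNA polymerase I class had negative differences in both adult models, with medians of -0.43 and -0.39, of which 0 passed the test in refed livers and 2 (Polr1a and Ncl) after hepatectomy. In fetuses 3 of the 5 differences were positive (median 0.21), and 0 passed. Over all 44, 21 members had a positive difference in all 3 models. In 5 (Ddx21, Ncl, Noc3l, Nolc1 and Wdr75) it was negative in all 3.

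The polysome share differed between fetal and hepatectomy livers for 1 member, Nol6, a processome subunit (0.96 ± 0.240, limma adjusted p = 0.0258; 1.19% of all clusters higher and 1.64% lower). Nol6 measured 9.91, 9.80, 9.55 and 9.71 in fetal DMSO polysomes and 9.34, 9.19, 9.28 and 9.10 in total RNA. After hepatectomy it measured 8.71, 8.72 and 8.57 in polysomes and 8.96, 9.24 and 9.11 in total RNA. Polysomes were the higher fraction in every fetus and the lower one in every operated liver. With the liver as a block 7 members were called, with Polr1a (0.68), Ncl (0.61), Heatr1 (0.59), Nop14 (0.57) and Polr1b (0.55) beside Nol6 higher in fetuses, and Imp4 lower (-0.46), beside 5.37% and 10.4% of all clusters. Without hepatectomy DMSO liver 2, 0 were called, with Nol6 at 0.91 (limma adjusted p = 0.115). No member differed between the hepatectomy and refed models by limma (background 0%), and 1, Nop10 (-0.31 ± 0.134), had an unadjusted p under 0.05. Next by p were Utp15 (-0.48 ± 0.383) and Ltv1 (-0.27 ± 0.235).

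Total RNA of the DMSO livers was last compared between models, where each group of controls serves in 2 contrasts. Members were lower after hepatectomy than after refeeding by a median of 0.34 on the log2 scale (-0.34, against 0.02 over all clusters). There 2 members were higher and 7 lower, beside 12.4% and 5.03% of all clusters. With only these groups in the fit, 0 were called. The groups did not overlap for 1 higher and 6 lower members (16.4% and 10.9% of all clusters). The lower members were Polr1b (-0.97 ± 0.220), Nol6 (-0.95 ± 0.181), Polr1a (-0.88 ± 0.165), Heatr1 (-0.81 ± 0.239), Tsr1 (-0.81 ± 0.189), the helicase Ddx21 (-0.74 ± 0.218) and Gnl2 (-0.60 ± 0.184), and the higher ones Nhp2 (1.01 ± 0.309) and Nop10 (0.46 ± 0.0949). Polr1b measured 9.93, 10.01 and 11.16 in refed and 9.28, 9.51 and 9.39 in hepatectomy total RNA. The groups were apart, and refed liver 3 carried much of the gap. Without that liver the median was -0.11 and 6 members were called: Nhp2 and Nop10 higher, and Polr1a, Polr1b, Nol6 and Tsr1 lower, Polr1b at -0.58.

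Fetal total RNA was below refed total RNA by a median of 0.16 (-0.16), with 2 members higher and 10 lower, beside 28.1% and 19% of all clusters. With only these groups in the fit, 3 of these calls were kept. The groups did not overlap for 2 higher and 7 lower members (24.4% and 15%). Nhp2 (1.10 ± 0.289) and Nop10 (0.31 ± 0.0888) were again higher. Lower were Nol6 (-0.83), Ddx21 (-0.80), Polr1b (-0.75), Bop1 (-0.72), Nop14 (-0.68), Noc2l (-0.64), Bysl (-0.64), Heatr1 (-0.59), Polr1a (-0.52) and Tsr1 (-0.43). Bop1 measured 8.98, 9.06, 9.09 and 8.60 in fetal and 9.36, 9.56 and 10.04 in refed total RNA, with no overlap. The median turned to 0.16 without refed DMSO liver 3, with 3 members higher and 6 lower, so that the direction of the set rests on that liver. Those 6 were Nol6, Polr1b, Ddx21, Bysl, Bop1 and Noc2l. With only the total RNA array of that liver left out, 3 were higher and 2 lower, and 4 of the 12 calls were kept.

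**Figure D5:**
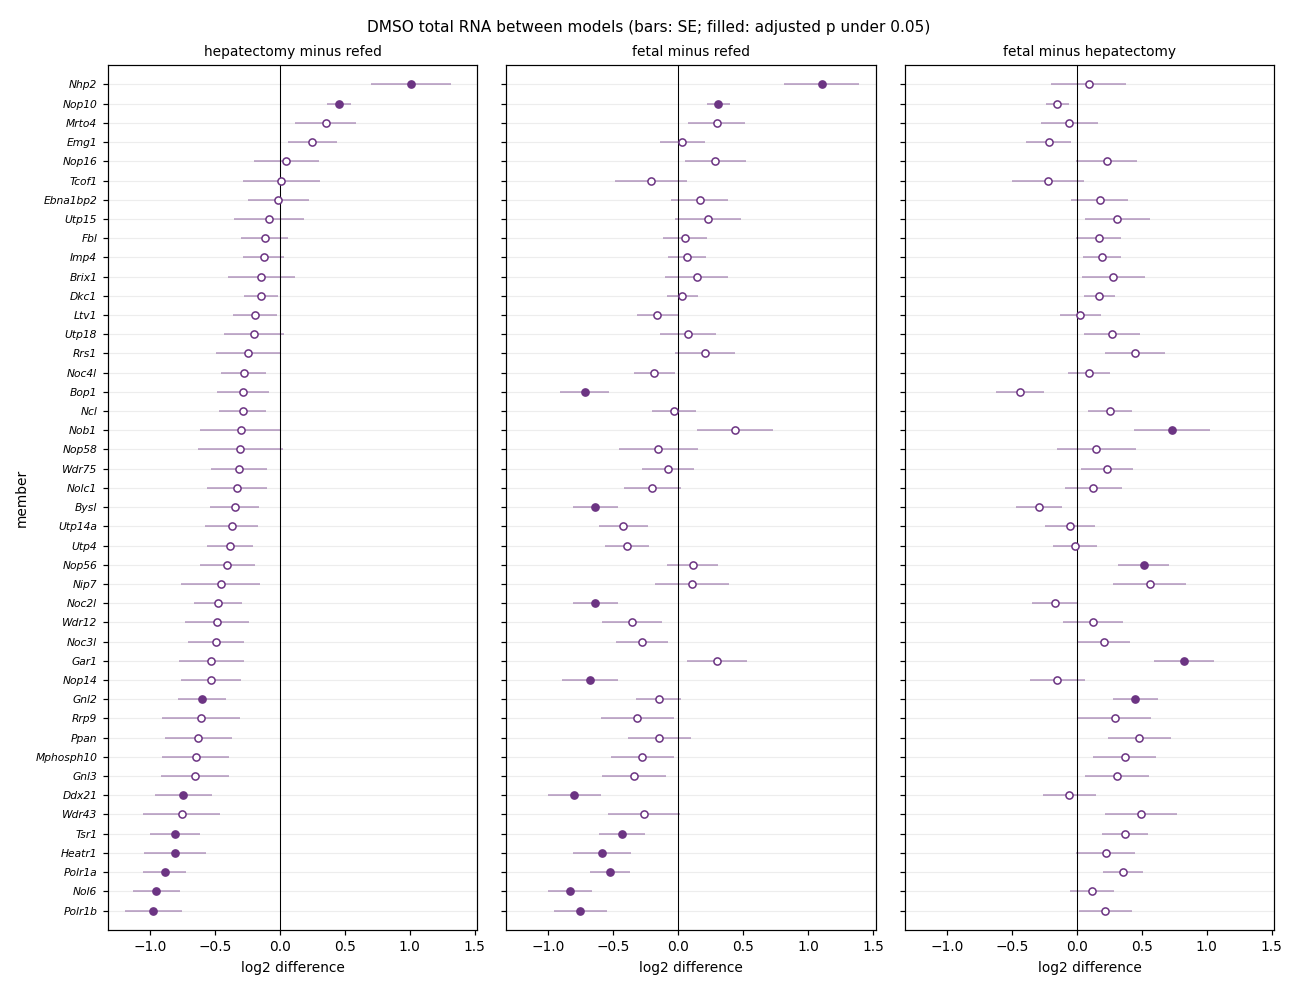
Log2 difference between models in DMSO total RNA (horizontal axis) for each of the 44 members (vertical axis); bars give the SE and filled points an adjusted p under 0.05. Nhp2 and Nop10 are higher, and Polr1a, Polr1b, Nol6, Heatr1, Tsr1 and Ddx21 lower, in both proliferating models than in refed livers.

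Fetal livers were above hepatectomy livers by a median of 0.20, with 4 members higher and 0 lower, beside 19.9% and 17% of all clusters. The groups did not overlap for 9 higher and 2 lower members (24.8% and 21.1%). The 4 members past the test were Gar1, an H/ACA snoRNP protein (0.83 ± 0.232, limma adjusted p = 0.00516), Nob1 (0.74 ± 0.293), Nop56 (0.52 ± 0.197) and Gnl2 (0.45 ± 0.172). Nop56 measured 11.12 to 11.40 in fetal and 10.55, 10.91 and 10.72 in hepatectomy DMSO total RNA, with no overlap. Without hepatectomy DMSO liver 2, Gar1, Nop56 and Gnl2 were called, and single arrays left out gave 1 to 3 calls.

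A wider list held 91 further tested ribosome biogenesis genes. Their median rapamycin difference was -0.31 in refed polysomes and -0.27 in refed total RNA, with 0 called. After hepatectomy it was -0.18 in polysomes, where Nop9 (-0.62), Wdr18 (-0.40) and Riok1 (-0.34) fell, beside 4.1% of all clusters. In hepatectomy total RNA it was -0.23, and 5 fell, led by Ddx52 (-0.62), Ftsj3 (-0.58), Pelp1 (-0.45) and Urb2 (-0.43), beside 3.54% of all clusters. In fetuses it was -0.03 and -0.05. In polysomes relative to total RNA, 18 were higher and 1 lower in refed livers, 33 and 15 after hepatectomy and 8 and 2 in fetuses, beside 19.5% and 5.14%, 28.8% and 15%, and 8.1% and 6.38% of all clusters. Hepatectomy total RNA held 1 higher (Exosc8, 1.08) and 15 lower than refed total RNA, the largest being Mybbp1a (-0.83), Gtpbp4 (-0.76) and Nat10 (-0.76).

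Myc, whose product binds the E-box, had a higher mean with rapamycin in all 6 comparisons, though none passed the test. Its refed total RNA values were 7.36, 7.66 and 8.45 with DMSO and 8.61, 10.52 and 8.30 with rapamycin, a difference of 1.32 ± 0.644 (SE, limma adjusted p = 0.325). After hepatectomy they were 8.81, 9.57 and 9.07 against 10.22, 9.63 and 9.59, a difference of 0.67 ± 0.234 (adjusted p = 0.113). In fetal polysomes the difference was 0.39 ± 0.116 (adjusted p = 1.00). Within the refed DMSO livers Myc was highest in liver 3, the liver highest for the members. Within the refed rapamycin livers Myc was highest in liver 2. That liver was the highest of its group for 36 of 44 members in polysomes (31.6% of all clusters) and 39 in total RNA (42.9%). A link between Myc and the members was not tested. Between models, Myc was higher in hepatectomy (1.33 ± 0.413, adjusted p = 0.0237) and fetal (1.83 ± 0.386, adjusted p = 0.000198) than in refed total RNA, while most members were not. Eif4ebp1, a translation repressor that mTOR phosphorylates, differed with rapamycin by 0.84 in refed total RNA (adjusted p = 0.237) and by -0.32 in hepatectomy total RNA (adjusted p = 0.0608). The hepatectomy difference minus the refed one was -1.16 ± 0.227 (limma adjusted p = 0.0118). Mtor did not pass the test in any rapamycin comparison, and the 6 rapamycin differences of Rps6, a ribosomal protein gene, lay between -0.34 and 0.10, none of them called.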

How the data were processed

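RNA of 20 livers was measured as polysome and total RNA on 40 arrays. The deposited values are intensities on a linear scale, 1 for each transcript cluster on each array, and the authors normalised them with RMA, per the submitters' processing notes. RMA equalises the arrays, so global changes are removed. The sources used here do not give its version or which arrays were run together. Values (28826 rows, 3.77 to 28447) were log2-transformed without a pseudocount. The number of arrays limits the precision.

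Of the rows, 15209 carried 1 gene symbol, 306 several and 13311 none; 15178 matched RefSeq by Entrez number. The 10860 tested rows had a symbol and a mean log2 intensity at or above the 30th percentile (6.70). Group means were fitted with limma 3.58.1 in R 4.3.3 (empirical Bayes with trend, two-sided p, Benjamini-Hochberg adjustment over all tested rows, threshold 0.05). Fits used the arrays of 1 model (8 residual degrees of freedom in adults, 12 in fetuses) or, across models, all 40 (28). There were 21 comparisons, and the fitting was checked on simulated data for 3 of them.

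Polysome and total RNA arrays with the same treatment and number were read as 1 liver, since the titles share these, and their deviations correlated at 0.459 to 0.818 (refed), 0.506 to 0.723 (hepatectomy) and 0.328 to 0.693 (fetal), so the liver was used as a block beside those results. Fetal DMSO and rapamycin arrays of equal number correlated at 0.425 to 0.751. In each comparison the members past the threshold were named, up to 10 in each direction, and the 3 with the smallest p where fewer than 3 passed. Values for each array were given for 12 fixed members and those past a rapamycin threshold. Other wider-list genes were named up to 4 per comparison. Members, lists and tests were chosen with earlier results of these data known, and values of Nhp2, Nol6 and Myc per array were added after they were seen. Alternatives were other filters, scaling, moderation, cluster means, fits, blocks and left-out arrays or livers.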

Additional observations from a re-analysis of the deposited data

Results flagged for a closer look

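In groups of 4, a liver was looked at again where the gap to its nearest liver divided by the group's range passed Dixon's critical value for 4 samples. Of 56 group values tested, 3 met this, and chance gives about 1 in 20. Tsr1 in fetal DMSO polysomes had a ratio of 0.897, with liver 1 (10.22) above the others (9.91 to 9.95). Tsr1 in fetal rapamycin total RNA had 0.949, with liver 1 at 9.82 and the others at 9.73 to 9.74. Dkc1 in fetal rapamycin total RNA had 0.839, with liver 4 at 9.48 and the others at 9.16 to 9.21. The polysome share of Nol6 differed between fetal and hepatectomy DMSO livers by 0.955, by the test of the difference itself (limma adjusted p = 0.0258).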

How the results depend on the processing

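Single livers moved the counts of members called, as the values below show.

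The number of members called was compared with that under each alternative. For polysome against total RNA in refed livers (5) it was 3 with cyclic loess, 11 with all arrays in one fit and 14 with the replicate block. In hepatectomy livers (19) it was 9 with all arrays in one fit and 30 with the block, and in fetal livers (13) it was 7 with cyclic loess, where the median was 0.18, and 21 with the block. For rapamycin, refed total RNA (0) gave 12 with all arrays in one fit. Hepatectomy polysomes (2) gave 1 without the filter, 1 with cyclic loess, 1 with all arrays in one fit, 4 with the replicate number as a block and 0 without DMSO liver 2. Hepatectomy total RNA (1) gave 0 without the filter, 0 with cyclic loess, 7 with the block and 0 without that liver. For hepatectomy against refed total RNA (9) only the groups of the contrast gave 0, for fetal against refed (12) they gave 3, and fetal against hepatectomy (4) gave 2 without the filter. The fetal minus hepatectomy difference in polysome share (1) gave 2 with only its groups, 7 with the block and 0 without hepatectomy DMSO liver 2. The rapamycin difference in total RNA, hepatectomy minus refed (0), gave 1 with the block. Its polysome median of 0.26 turned to -0.037 without refed DMSO liver 3, and that of fetal minus hepatectomy (0.21) was 0.075 without hepatectomy DMSO liver 2. The cause was not tested. DMSO and rapamycin arrays of equal number did not pair in adults (r from -0.619 to 0.392 in refed and -0.065 to 0.276 in hepatectomy livers), and the block changed no other call count by over 1.5 times.

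Leaving out 1 array gave 2 to 8 calls for refed, 14 to 22 for hepatectomy and 5 to 11 for fetal polysome share. It gave 0 to 8 for rapamycin in refed total RNA, 0 to 10 in hepatectomy polysomes and 0 to 5 in hepatectomy total RNA. It gave 5 to 14 for hepatectomy minus refed, 5 to 14 for fetal minus refed and 1 to 3 for fetal minus hepatectomy. It gave 0 to 1 for the fetal minus hepatectomy polysome share and 0 to 6 for the rapamycin difference in total RNA, hepatectomy minus refed. The median of that difference in polysomes ran from -0.037 to 0.42, and that of fetal minus hepatectomy from 0.075 to 0.29. The livers left out in both fractions and the fetal number block were chosen after seeing the data.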
